A study of Mus musculus with 16 samples.

Results

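The genes described here are the mouse proteasome genes, taken by symbol as every gene of the count tables that starts with Psma, Psmb, Psmc, Psmd, Psme, Psmf or Psmg followed by a digit. The rule found 49 genes of 23420. By known role they are 7 alpha subunits of the 20S core, the germ cell alpha subunit Psma8, 7 constitutive beta subunits, 4 beta subunits of immune or thymic tissue, 6 ATPases and 11 other subunits of the 19S cap, 5 activators or inhibitors, and 7 assembly chaperones. The remaining gene, Psmc3ip, answers to the rule by its symbol only: it encodes HOP2, a meiotic recombination protein, and is no proteasome subunit. Of the 49 genes, 47 had enough counts to be tested, and Psmb8 and Psmb11 did not.

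RNA-seq was made from J1 mouse embryonic stem (ES) cells of the strain 129S4/SvJae at passage 36, cultured without feeders on gelatin in serum medium with 2i inhibitors and LIF. Cells of every group carried the transgene Tn(dCas9-VPR/RLTR10B2-gRNA-DsRed), which pairs dCas9-VPR, a nuclease-dead Cas9 fused to transcription activators, with guide RNAs against the endogenous retrovirus family RLTR10B2 and a DsRed marker. There were 4 groups of 2 libraries, all of day 3: control cells with neither treatment, cells given doxycycline at 1 µg/ml (Dox), cells with A-MYB expression (A-MYB), and cells with both (Dox + A-MYB), the inductions being at day 1 and day 2. A-MYB, encoded by Mybl1, is a transcription factor of male meiosis. Each RNA came from a well of a plate. Whether the wells of a group came from separate cultures, whether the line is a single clone and what the cells without A-MYB received in its place are not given in the sources used here, so the p-values measure only the spread between these libraries. The series also holds H3K27ac peak lists of pachytene spermatocytes from C57BL/6J mice of 8 to 12 weeks, 2 lists of wild-type mice and 2 of A-myb repro9/repro9 mutants.

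The 26S proteasome degrades proteins tagged with ubiquitin. Its 20S core is a barrel of outer alpha rings, which gate entry, and inner beta rings, which hold the proteolytic sites. The 19S cap binds ubiquitin chains, removes them and unfolds the substrate with a ring of ATPases. PA28 and PA200 are alternative caps, and dedicated chaperones build core and cap. In immune cells Psmb8, Psmb9 and Psmb10 replace the catalytic beta subunits Psmb5, Psmb6 and Psmb7, and in spermatocytes Psma8 replaces Psma7.

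The libraries held 26995317 to 33771487 gene counts, and the 49 genes together took 0.888 to 0.968% of them. Levels are given as CPM, counts scaled to a common library size after TMM scaling of the libraries. Tests are edgeR's quasi-likelihood test with p adjusted over 14664 genes by the Benjamini-Hochberg method, and a gene passed at an adjusted p under 0.05. Mybl1 was at 8.38 and 6.92 CPM in control, 10.99 and 10.17 in Dox, 22.03 and 17.83 in A-MYB and 19.9 and 16.6 in Dox + A-MYB, so every library with A-MYB lay above those without it. The A-MYB effect on Mybl1 was a log2 fold change of 1.38 without Dox (SE 0.14, adjusted p = 1.24e-07) and 0.79 with it (SE 0.13, adjusted p = 2.31e-05). Dox alone also raised Mybl1, by 0.47 (SE 0.15, adjusted p = 0.0167), while in A-MYB cells the Dox effect was -0.12 (adjusted p = 0.427). The summed level of 7 ES cell markers (Pou5f1, Sox2, Nanog, Klf4, Esrrb, Zfp42, Tdgf1) was 5865 to 6089 CPM in control, 6140 to 6192 in Dox, 5602 to 5804 in A-MYB and 3793 to 4142 in Dox + A-MYB, and none of the 7 was at 0. Of 7 pachytene markers, the sum was 5.87 to 8.52 CPM in control and 16.4 to 19.7 in Dox + A-MYB. These markers did not move together. In that comparison 5 were tested, 3 being higher and 1 lower, beside 33.5% and 30.4% of all tested genes. Sycp3 rose from 2.53 and 1.55 CPM to 10.8 and 9.11, while Ldhc fell from 3.88 and 3.03 to 1.58 and 1.16. The part of these marker changes in the proteasome values was not tested. In these bulk samples fewer cells that express a gene and less RNA per cell cannot be told apart.

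Most tested proteasome genes were at lower levels in the cells with both treatments. Against control, 31 of 47 were lower and 3 higher in Dox + A-MYB cells, where 30.4% of all 14664 genes were lower and 33.5% higher. The median log2 fold change was -0.29 over the 47 and 0.05 over all tested genes. Dox alone gave 16 lower and 1 higher, against 14.3% and 17.9% of all genes. A-MYB alone gave 14 lower and 3 higher, against 15.2% and 19.5%. Without control replicate 1 the lower counts of the single treatments were 6 and 4, and only 4 of the 16 and 4 of the 14 passed without each library in turn. In cells with A-MYB the Dox effect gave 27 lower and 5 higher, against 30.4% and 28.5%, and in Dox cells the A-MYB effect gave 29 lower and 5 higher, against 28.4% and 26.8%. No library enters both Dox effects, and none enters both A-MYB effects, while every other pair of contrasts has libraries in common. Only 2 genes reached a 2-fold difference from control in Dox + A-MYB cells, Psmb9 upward and Psme1 downward, and 23.5% of all tested genes did.

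This count has a context of abundance and of scaling. In control cells 35 of the 47 genes lay among the 2933 most abundant of all tested genes, a ranking chosen after values were seen. Of those 2933, 59.4% were lower in Dox + A-MYB cells than in control, beside 26 of the 35 (74.3%), with medians of -0.25 and -0.31. For the Dox effect in A-MYB cells the shares were 60.7% and 68.6%, with medians of -0.24 and -0.23, and for the A-MYB effect in Dox cells 61.3% and 71.4%. With Dox alone they were 26.4% and 34.3%, and with A-MYB alone 30.6% and 31.4%. The lower level of the family as a whole was therefore close to that of other abundant genes, and the account below turns on how its members differed from each other. Scaling to total counts in place of TMM raises the median of all genes by 0.23 in the comparison of Dox + A-MYB with control, by 0.21 for Dox in A-MYB cells and by 0.19 for A-MYB in Dox cells. Under it the median of the 47 was -0.06, 0.01 and -0.01 in these comparisons, and 18, 16 and 10 genes were lower. Under TMM the median of all genes was at most 0.05 in every contrast, so the TMM values are read here as changes relative to that median.

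**Figure D1:**
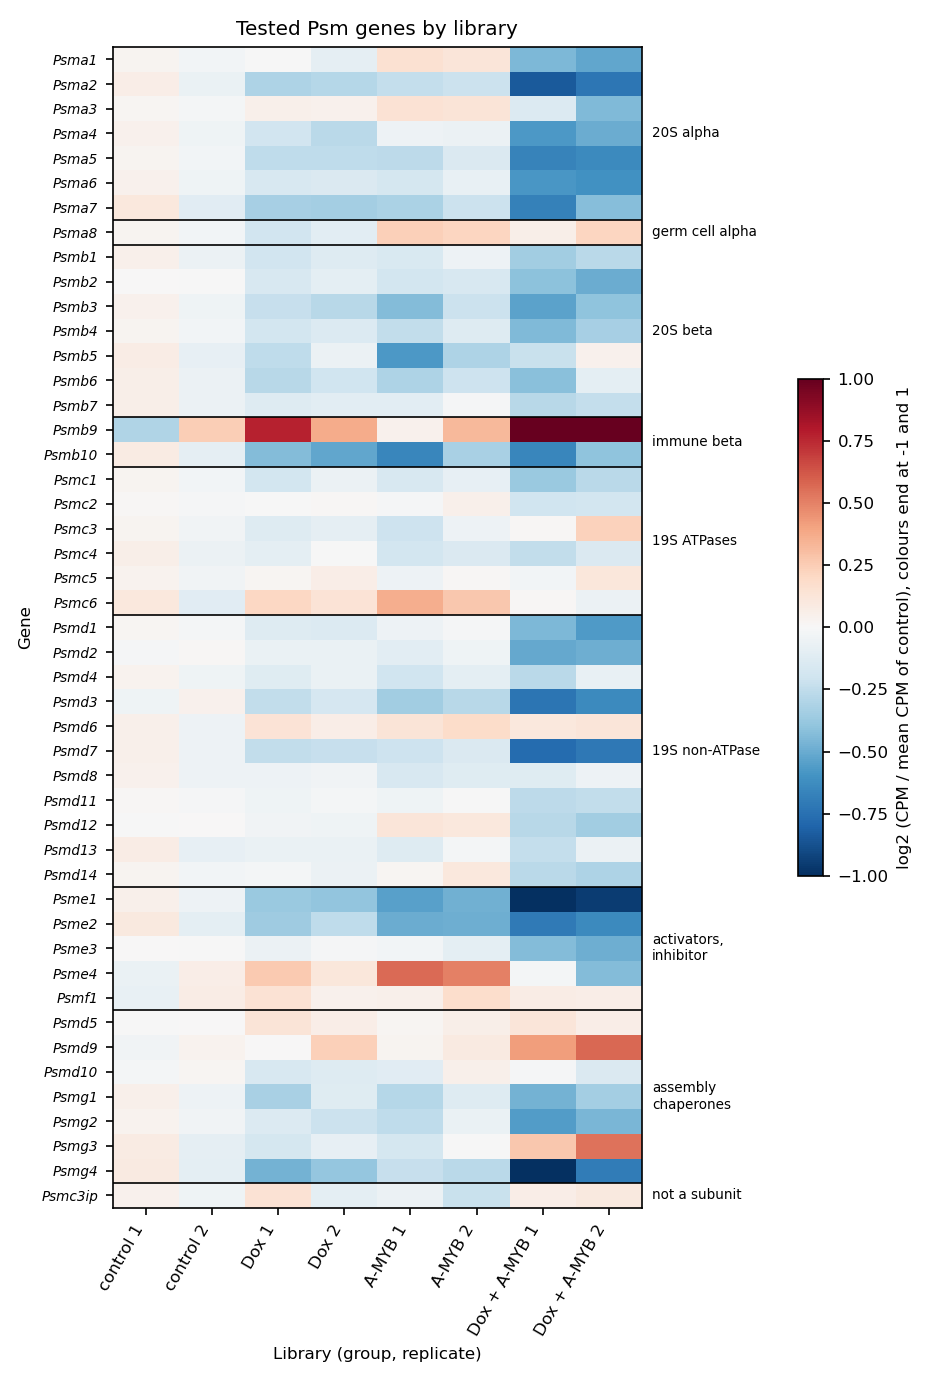
Each row is 1 of the 47 tested genes, grouped by role, and each column 1 of the 8 libraries. Colour is the log2 ratio of a library's TMM-scaled CPM to the mean of the 2 control libraries, with colours ending at -1 and 1. Blue is lower and red higher than control. The 7 alpha ring rows are blue in both Dox + A-MYB libraries, while Psmb9, Psmd9 and Psmg3 are red there.

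The alpha ring fell as a block. All 7 of its genes were lower in Dox + A-MYB cells than in control. They lay among the 2933 most abundant genes, of which 59.4% were lower. Of the 7 genes, 6 stayed lower under total counts, the exception being Psma3 (-0.05, adjusted p = 0.597). The summed level of the alpha ring was 1685 and 1568 CPM in control, 1429 and 1413 in Dox, 1500 and 1540 in A-MYB, and 1086 and 1103 in Dox + A-MYB. The 2 Dox + A-MYB libraries were below all the others, at 0.673 times the control mean (1095 ± 12.0 against 1627 ± 82.7, SD, n = 2). The median log2 fold change of the 7 genes was -0.54, and -0.31 under total counts. All 7 were also lower by the Dox effect in A-MYB cells (median -0.47) and by the A-MYB effect in Dox cells (median -0.40), of which 6 and 4 remained under total counts. After TMM scaling 60.7% and 61.3% of the 2933 most abundant genes were lower by these effects. With Dox alone 26.4% were lower and with A-MYB alone 30.6%, beside 5 and 3 of the 7 alpha genes. Of these, Psma2 and Psma5 passed with Dox alone without each library in turn. With A-MYB alone none of Psma2, Psma5 and Psma7 passed without control replicate 1 (adjusted p = 0.0696, 0.0659 and 0.175).

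Psma2, an alpha subunit whose gene lies at chr13:14613242-14625673 (GRCm38.p6, as all gene positions here), had the steepest fall of the ring. It was at 362 and 329 CPM in control, 279 and 283 in Dox, 293 and 298 in A-MYB, and 193 and 210 in Dox + A-MYB. Every treated library was below both controls, and those with both treatments were lowest. Its log2 fold change was -0.78 (SE 0.06, adjusted p = 2.54e-11) in Dox + A-MYB against control, -0.30 (adjusted p = 0.00042) with Dox alone and -0.23 (adjusted p = 0.00419) with A-MYB alone.

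Psma1 and Psma3, also alpha subunits, followed another course. Psma1 (chr7:114264550-114276116) was at 196 and 188 CPM in control, 191 and 181 in Dox, 214 and 209 in A-MYB, and 140 and 134 in Dox + A-MYB. Dox alone left it at a log2 fold change of -0.05 (adjusted p = 0.588), but in A-MYB cells the Dox effect was -0.62 (SE 0.06, adjusted p = 2.42e-09). The difference between these Dox effects, the interaction, was -0.58 (SE 0.08, adjusted p = 6.53e-06). Psma3 was at 171 and 167 CPM in control, 175 and 175 in Dox, 187 and 185 in A-MYB, and 154 and 124 in Dox + A-MYB, with an interaction of -0.47 (SE 0.10, adjusted p = 0.000912). Both genes had their highest values in the A-MYB libraries and their lowest in those with both treatments. The remaining alpha genes Psma4, Psma5, Psma6 and Psma7 fell by log2 fold changes of -0.54, -0.65, -0.59 and -0.54 in Dox + A-MYB cells. For Psma7 the Dox effect in A-MYB cells, -0.28 (adjusted p = 0.00537), did not pass without A-MYB replicate 2 (adjusted p = 0.0564) or under total counts (adjusted p = 0.441).

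**Figure D2:**
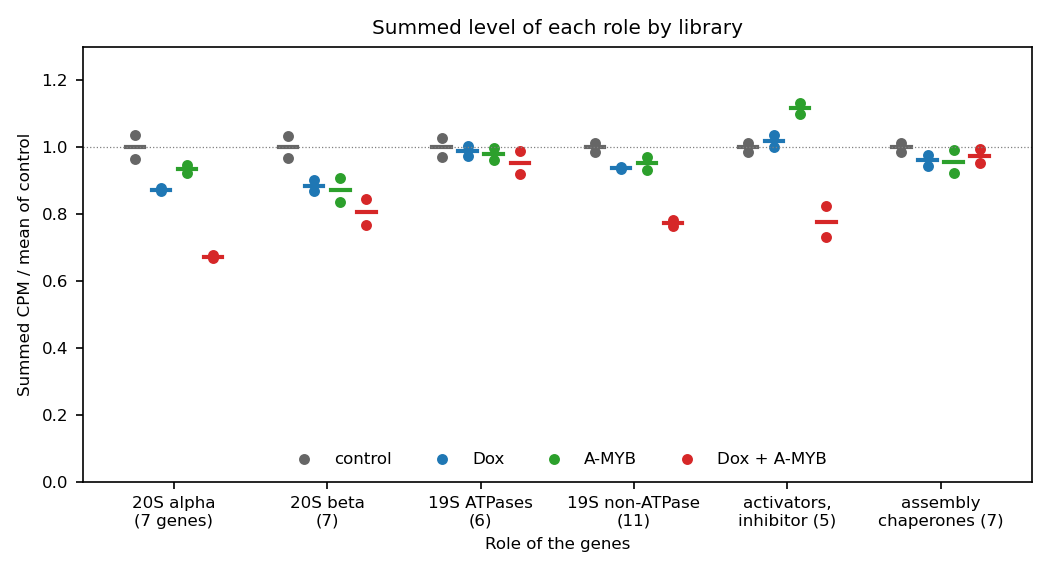
Points are the 2 libraries of each group, and bars their mean. The vertical axis is the summed TMM-scaled CPM of the genes of a role divided by the mean of control, from 0. The alpha ring of Dox + A-MYB cells is at 0.673 of control, the ATPases are at 0.954 and the assembly chaperones at 0.975, the last 2 having medians above control under total counts (0.13 and 0.16 on the log2 scale).

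Psma8, the alpha subunit of meiotic germ cells that stands in for Psma7, did not share the fall. Its level was 29.7 and 28.5 CPM in control, 25.6 and 27.1 in Dox, 34.4 and 33.7 in A-MYB, and 30.4 and 33.8 in Dox + A-MYB. The 4 libraries with A-MYB were above the 4 without. The A-MYB effect was 0.29 (SE 0.09, adjusted p = 0.0095) in Dox cells, but without Dox replicate 1 or Dox + A-MYB replicate 2 it did not pass (adjusted p = 0.114 and 0.132). Against control the log2 fold change with both treatments was 0.14 (adjusted p = 0.182), and 0.37 under total counts (adjusted p = 0.000819). Without Dox the A-MYB effect was 0.23 (SE 0.09, adjusted p = 0.0582), which did not pass, and total counts brought it to adjusted p = 0.0363. The ratio of Psma8 to Psma7 counts does not depend on library scaling. It was 12.1 and 13.5% in control, 14.1 and 15.0% in Dox, 18.7 and 17.1% in A-MYB and 21.2 and 19.9% in Dox + A-MYB. The ratio was thus higher in each library with A-MYB than in any without. Psma7, its denominator, was at 246 and 211 CPM in control, 181 and 181 in Dox, 184 and 197 in A-MYB, and 143 and 170 in Dox + A-MYB. The ratio therefore also carries the fall of Psma7. Since reads were not set against transcript length, it is no ratio of molecules.

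The constitutive beta ring fell less evenly. In Dox + A-MYB cells 6 of its 7 genes were lower than control (median -0.31, and -0.07 under total counts), and its sum was 0.806 of control. All 7 lay among the 2933 most abundant genes, of which 59.4% were lower. The structural subunits Psmb2, Psmb3 and Psmb4 fell by -0.45, -0.47 and -0.39, and remained lower under total counts. Psmb1 and Psmb7 were at -0.31 and -0.26, but under total counts at -0.07 (adjusted p = 0.294) and -0.02 (adjusted p = 0.762). Psmb2 was at 170 and 169 CPM in control, 151 and 158 in Dox, 149 and 151 in A-MYB, and 127 and 120 in Dox + A-MYB. All its treated libraries were below control.

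The catalytic subunits are Psmb5, which cuts after hydrophobic residues, Psmb6, which cuts after acidic ones, and Psmb7. With both treatments Psmb6 and Psmb7 were lower than control, calls that did not pass under total counts. Only Psmb5 did not pass in that comparison. Psmb5 (chr14:54614120-54617995) was at 156 and 140 CPM in control, 124 and 142 in Dox, 99.4 and 119 in A-MYB, and 127 and 152 in Dox + A-MYB. The A-MYB libraries were the lowest, and those with both treatments overlapped control. A-MYB alone lowered Psmb5 by a log2 fold change of -0.43 (SE 0.11, adjusted p = 0.0082), which without control replicate 1 had an adjusted p of 0.0557. In A-MYB cells Dox raised it by 0.35 (SE 0.11, adjusted p = 0.0141). This call was lost without A-MYB replicate 1 (adjusted p = 0.103), without Dox + A-MYB replicate 2 (adjusted p = 0.0822) and with DESeq2 (adjusted p = 0.0541). The interaction was 0.50 (SE 0.15, adjusted p = 0.0196), a call lost without control replicate 1 (adjusted p = 0.0659) or Dox replicate 1 (adjusted p = 0.0521).

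Psmb6 was at 408 and 376 CPM in control, 324 and 340 in Dox, 316 and 339 in A-MYB, and 293 and 365 in Dox + A-MYB. Its Dox + A-MYB libraries lay far apart. The log2 fold change against control was -0.24 with Dox (adjusted p = 0.0411), -0.26 with A-MYB (adjusted p = 0.0272) and -0.25 with both (adjusted p = 0.016). None of these held without control replicate 1 (adjusted p = 0.194, 0.132 and 0.0783), and the first and last did not pass under total counts (adjusted p = 0.0753 and 0.863). The calls also failed without Dox replicate 1 (adjusted p = 0.184), A-MYB replicate 1 (adjusted p = 0.142) and Dox + A-MYB replicate 1 (adjusted p = 0.077), in the same order.

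Of the immunoproteasome subunits, Psmb9 rose and Psmb10 fell. Psmb9 (chr17:34182030-34187330), the immune counterpart of Psmb6, was at 0.346 and 0.505 CPM in control, 0.727 and 0.550 in Dox, 0.438 and 0.534 in A-MYB, and 1.58 and 1.57 in Dox + A-MYB. The 2 libraries with both treatments were above the other 6, on 10 to 54 counts per library. Against control the log2 fold change was 1.89 (SE 0.49, adjusted p = 0.00175), and the Dox effect in A-MYB cells was 1.68 (SE 0.48, adjusted p = 0.00411). The A-MYB effect in Dox cells was 1.29 (SE 0.46, adjusted p = 0.0196), and it did not pass without any 1 of the 4 libraries concerned (adjusted p = 0.0525, 0.129, 0.0825 and 0.0845 without Dox replicate 1, Dox replicate 2, Dox + A-MYB replicate 1 and Dox + A-MYB replicate 2). The interaction was 1.09 (SE 0.73, adjusted p = 0.245). As a share of Psmb6 counts, Psmb9 was 0.110 ± 0.0350% in control and 0.485 ± 0.0768% in Dox + A-MYB (SD, n = 2).

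Psmb10 (chr8:105935728-105938392), the counterpart of Psmb7, was at 18.7 and 16.6 CPM in control, 13.1 and 12.3 in Dox, 11.2 and 14.1 in A-MYB, and 11.2 and 13.3 in Dox + A-MYB. Both control libraries were above the other 6. It fell by a log2 fold change of -0.48 with Dox (SE 0.13, adjusted p = 0.00743), -0.48 with A-MYB (SE 0.13, adjusted p = 0.00699) and -0.52 with both (SE 0.13, adjusted p = 0.00122). The calls for single treatments did not hold without control replicate 1 (adjusted p = 0.0953 and 0.0832), that for A-MYB also not without A-MYB replicate 1 (adjusted p = 0.109), and that for both treatments had an adjusted p of 0.0543 under total counts. Psmb8, the counterpart of Psmb5, had 1 and 1 counts in control, 0 and 5 in Dox, 0 and 3 in A-MYB, and 3 and 7 in Dox + A-MYB. The scaled ratio of Dox + A-MYB to control was 4.02 with an exact 95% counting interval of 0.856 to 37.7, so a difference was not detectable at this depth. Psmb11, the thymus subunit, had 0 to 3 counts in each library.

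Markers of white blood cells, cells that use Psmb8, Psmb9 and Psmb10, were read beside Psmb9. Itgam, a myeloid integrin, was at 0.312 and 0.427 CPM in control, 1.33 and 0.997 in Dox, 0.840 and 1.47 in A-MYB, and 7.33 and 7.77 in Dox + A-MYB. Cd3e, of the T cell receptor complex, was at 0.623 and 0.855 CPM in control, 2.302 and 1.134 in Dox, 0.584 and 0.534 in A-MYB, and 1.87 and 2.34 in Dox + A-MYB. Both were higher in Dox + A-MYB cells than in control (log2 fold changes 4.35 and 1.51, adjusted p = 5.59e-11 and 0.00318). Csf1r, the macrophage growth factor receptor, had 0 counts in both control libraries, 4 and 7 in Dox + A-MYB and 1 in Dox replicate 2. Ptprc, which marks all white blood cells, had 0 counts in both control libraries. It had 1 and 1 in Dox + A-MYB and 1 in A-MYB replicate 1. Csf1r and Ptprc had too few counts to be tested, and nothing is read from Ptprc. The part of these markers in the Psmb9 result was not tested. Genes that work with the immunoproteasome in antigen presentation were mixed. Of 10 listed genes, 9 were tested, and 4 were higher and 3 lower in Dox + A-MYB cells than in control. Of all tested genes 33.5% were higher and 30.4% lower, so nothing is read from these counts. Tap1, a subunit of the peptide transporter that carries proteasome products into the endoplasmic reticulum and a close neighbour of Psmb9, was at 2.18 and 2.76 CPM in control, 3.998 and 3.505 in Dox, 2.34 and 2.71 in A-MYB, and 10.98 and 10.77 in Dox + A-MYB. Its level with both treatments was above every other library (log2 fold change 2.14, SE 0.20, adjusted p = 1.03e-09), and its interaction was 1.49 (SE 0.30, adjusted p = 0.000272). Irf1, an interferon-response factor known to drive Psmb9 and Tap1, fell from 46.4 and 41.2 CPM in control to 18.7 and 22.7 in Dox + A-MYB (log2 fold change -1.08, SE 0.10, adjusted p = 6.98e-10).

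**Figure D3:**
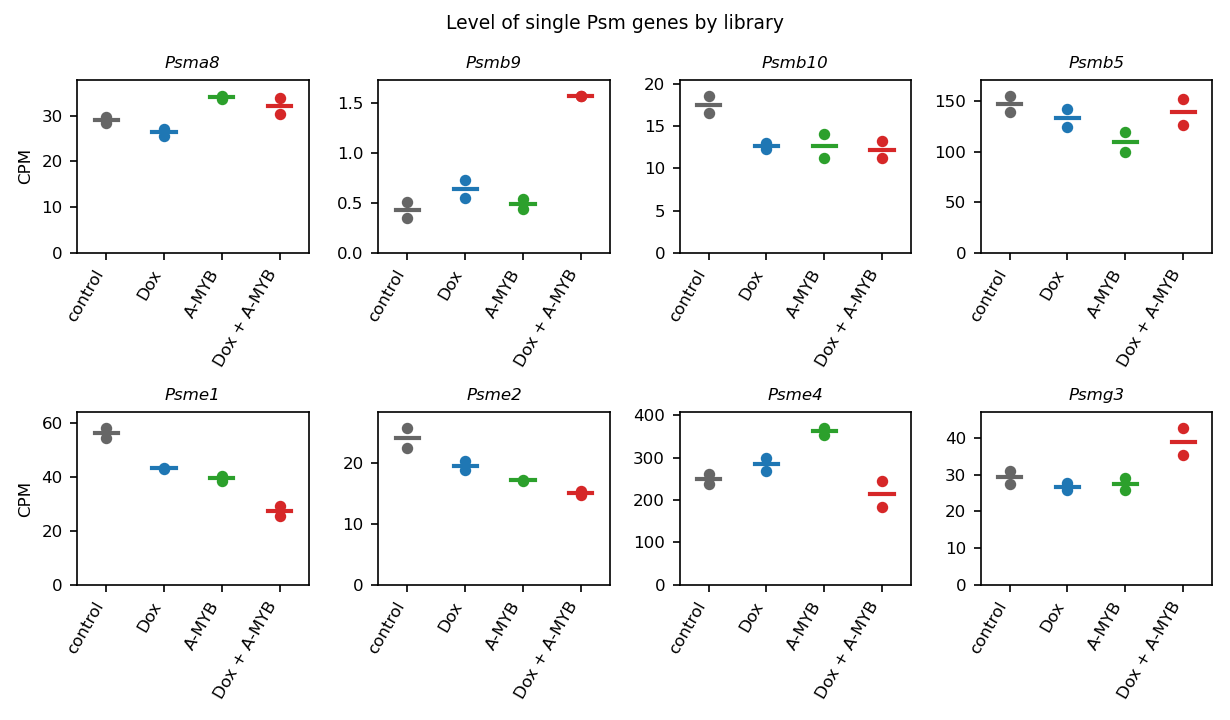
TMM-scaled CPM of 8 genes in each library, from 0, with points for the 2 libraries of a group and a bar at their mean. Psmb9 is at 1.58 and 1.57 CPM in the Dox + A-MYB libraries and at most 0.727 elsewhere. Psme1 has its lowest values in Dox + A-MYB, and Psme4 its highest in A-MYB.

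The ATPases of the 19S cap, Psmc1 to Psmc6, form the ring that unfolds substrates, and after TMM scaling their sum was at 0.954 of control with both treatments, the nearest to control of the 4 subcomplexes of the 26S particle. Under total counts this order does not hold, since the median log2 fold change was 0.13 for the ATPases, -0.07 for the beta ring and -0.06 for the other 19S subunits. Their sum was 1949 and 1838 CPM in control, 1843 and 1902 in Dox, 1824 and 1892 in A-MYB, and 1740 and 1872 in Dox + A-MYB, with overlapping values throughout. In Dox + A-MYB cells 3 of the 6 were lower than control and none higher (median -0.11), whereas under total counts none was lower and 3 were higher. All 6 lay among the 2933 most abundant genes, of which 59.4% were lower after TMM scaling. Psmc1, Psmc2 and Psmc4 had log2 fold changes of -0.32, -0.19 and -0.19, which under total counts were -0.08, 0.04 and 0.04 and did not pass. The Psmc4 call also failed without control replicate 1 (adjusted p = 0.0559).

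Psmc3 (chr2:91054016-91059438) was at 410 and 393 CPM in control, 367 and 378 in Dox, 347 and 388 in A-MYB, and 404 and 471 in Dox + A-MYB. Dox raised it in A-MYB cells by 0.25 (SE 0.07, adjusted p = 0.00291), and the interaction was 0.36 (SE 0.10, adjusted p = 0.00444). Against control it was at 0.12 with both treatments (adjusted p = 0.111), and at 0.36 under total counts (adjusted p = 4.22e-05). The call in A-MYB cells did not pass without A-MYB replicate 1 (adjusted p = 0.0745) or without Dox + A-MYB replicate 2 (adjusted p = 0.0986), while the interaction passed without each library in turn. Psmc6 (chr14:45329823-45349074) went the other way. It was at 256 and 221 CPM in control, 274 and 261 in Dox, 307 and 286 in A-MYB, and 240 and 228 in Dox + A-MYB. A-MYB alone raised it by 0.32 (SE 0.07, adjusted p = 0.000545, but 0.073 without control replicate 2). In A-MYB cells Dox lowered it by -0.34 (SE 0.07, adjusted p = 8.36e-05, but 0.0815 under total counts), and the interaction was -0.51 (SE 0.09, adjusted p = 0.0001). Psmc5 had log2 fold changes from -0.02 to 0.06 over the contrasts, none of which passed, while under total counts it was 0.28 higher than control with both treatments (adjusted p = 0.000155).

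Among the 11 other 19S subunits, 8 were lower in Dox + A-MYB cells than in control and none was higher. All 11 lay among the 2933 most abundant genes, of which 59.4% were lower, so nothing is read from that count. Under total counts 4 of the 11 were lower and 2 higher. The sum of the 11 was 0.773 of control (2763 ± 44.9 against 3572 ± 63.9 CPM, SD, n = 2). Psmd7 and Psmd3, subunits of the lid, fell most. Psmd7 was at 372 and 346 CPM in control, 303 and 306 in Dox, 311 and 325 in A-MYB, and 211 and 218 in Dox + A-MYB, a log2 fold change of -0.74 (SE 0.06, adjusted p = 2.26e-11). Psmd3 was at 352 and 373 CPM in control, 306 and 323 in Dox, 285 and 299 in A-MYB, and 218 and 233 in Dox + A-MYB, a log2 fold change of -0.68 (SE 0.06, adjusted p = 1.67e-10). In both genes each treated library was below both controls. The largest subunits of the base, Psmd1 and Psmd2, fell by -0.51 and -0.50 with both treatments and did not pass with either alone. With DESeq2 size factors or DESeq2 itself, Psmd1 did pass with Dox alone (-0.16, adjusted p = 0.0273 and 0.0171). Psmd2 was at 699 and 710 CPM in control, 671 and 672 in Dox, 656 and 684 in A-MYB, and 494 and 503 in Dox + A-MYB, with an interaction of -0.36 (SE 0.08, adjusted p = 0.000519).

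The lid did not move as a unit. Psmd11, Psmd12 and Psmd14, the last the deubiquitinase of the lid, had log2 fold changes of -0.25, -0.31 and -0.29 in Dox + A-MYB cells, which under total counts were -0.02, -0.08 and -0.06 and did not pass. Psmd12 was at 258 and 261 CPM in control, 253 and 251 in Dox, 282 and 279 in A-MYB, and 214 and 204 in Dox + A-MYB, with an interaction of -0.39 (SE 0.08, adjusted p = 0.000327). The lid genes Psmd6, Psmd8 and Psmd13 had log2 fold changes of 0.11, -0.09 and -0.15 in Dox + A-MYB cells, none of which passed. Under total counts Psmd6 and Psmd8 passed upward, at 0.35 (adjusted p = 1.28e-05) and 0.15 (adjusted p = 0.0238). Psmd13 passed downward with DESeq2 size factors (adjusted p = 0.0352), with DESeq2 (adjusted p = 0.0499) and without the filter on low counts (adjusted p = 0.0176). Psmd6 passed with A-MYB alone at 0.15 (adjusted p = 0.0474), a call that no fit without 1 library kept. The ubiquitin receptor Psmd4 was at -0.17 (adjusted p = 0.0271), and not past the threshold without control replicate 1 (adjusted p = 0.112), without Dox + A-MYB replicate 1 (adjusted p = 0.185) or under total counts (0.07, adjusted p = 0.366).

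The shift between subcomplexes can be stated without library scaling, as each one's share of the counts of the 31 genes that encode alpha, beta, ATPase and other 19S subunits. The alpha ring held 18.47 and 18.05% in control, 17.44 and 16.99% in Dox, 18.35 and 18.01% in A-MYB, and 15.6 and 15.1% in Dox + A-MYB. The ATPases held 21.4 and 21.2% in control, 22.5 and 22.9% in Dox, 22.3 and 22.1% in A-MYB, and 25.0 and 25.6% in Dox + A-MYB. In both, the libraries with both treatments lay outside all others. Psmc3 and Psmc5 took most of the ATPase gain, going from 4.49 and 4.52% to 5.81 and 6.44% and from 4.13 and 4.15% to 5.19 and 5.47%. The beta ring was at 20.4 ± 0.229% in control and 20.5 ± 0.686% in Dox + A-MYB, and the other 19S subunits at 40.1 ± 0.669% and 38.8 ± 0.735% (SD, n = 2). With 2 libraries against 2, an exact permutation test cannot go below p = 0.333, so no p is given for these shares.

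**Figure D4:**
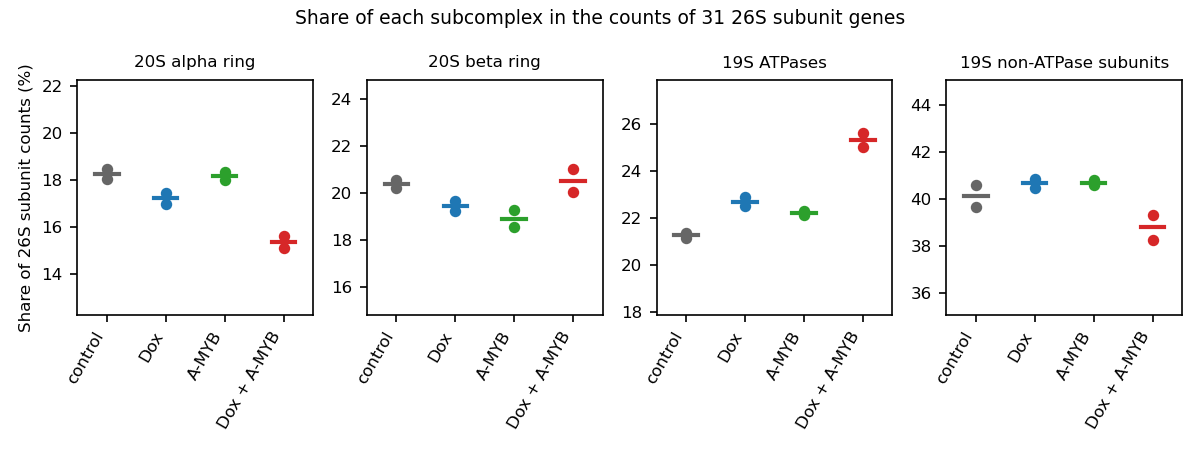
Share of each subcomplex in the counts of 31 26S subunit genes, in percent, with points for the 2 libraries of a group and a bar at their mean. Each panel spans 10 percentage points and does not start at 0. The alpha ring is lowest (15.6 and 15.1%) and the ATPases are highest (25.0 and 25.6%) in Dox + A-MYB.

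The genes of the alternative caps passed as lower with both treatments, except that of PA200, which did not pass. Psme1 and Psme2 encode the subunits of PA28, the interferon-inducible cap, and lie close together on chromosome 14 (chr14:55578494-55581527 and chr14:55587440-55591101). Psme1 was at 58.2 and 54.5 CPM in control, 43.5 and 42.8 in Dox, 38.6 and 40.3 in A-MYB, and 25.7 and 29.3 in Dox + A-MYB. The groups did not overlap. Its log2 fold changes were -0.38 with Dox (SE 0.08, adjusted p = 0.00103), -0.51 with A-MYB (SE 0.08, adjusted p = 4.57e-05) and -1.04 with both (SE 0.09, adjusted p = 9.17e-11), and its interaction was -0.14 (SE 0.12, adjusted p = 0.383). Psme2 was at 25.7 and 22.5 CPM in control, 18.9 and 20.2 in Dox, 17.1 and 17.2 in A-MYB, and 14.8 and 15.5 in Dox + A-MYB. It fell by -0.49 with A-MYB (SE 0.11, adjusted p = 0.000887) and -0.68 with both (SE 0.11, adjusted p = 5.79e-06). With Dox its -0.30 (adjusted p = 0.0311) did not hold without control replicate 1 (adjusted p = 0.248), without Dox replicate 1 (adjusted p = 0.226) or under total counts (adjusted p = 0.0635).

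Psme3, the nuclear PA28 gamma, was at 304 and 301 CPM in control, 290 and 300 in Dox, 296 and 283 in A-MYB, and 224 and 216 in Dox + A-MYB. Both Dox + A-MYB libraries were below all the others, with a log2 fold change of -0.46 against control (SE 0.06, adjusted p = 8.45e-08) and an interaction of -0.36 (SE 0.08, adjusted p = 0.000726, but 0.0536 under total counts). Psme4 (chr11:30771775-30881150) encodes PA200, the cap that in male germ cells is known for the degradation of acetylated histones. It was at 238 and 261 CPM in control, 299 and 269 in Dox, 370 and 354 in A-MYB, and 245 and 184 in Dox + A-MYB. The A-MYB libraries were the highest, and the Dox + A-MYB libraries lay far apart and overlapped control. Against control with both treatments Psme4 passed downward only in a fit without edgeR's robust option (-0.21, adjusted p = 0.0449). Under total counts that change turned upward and did not pass. A-MYB alone raised Psme4 by 0.54 (SE 0.12, adjusted p = 0.00993), but the call was lost without control replicate 1, A-MYB replicate 1 or A-MYB replicate 2. In A-MYB cells Dox lowered it by -0.75 (SE 0.12, adjusted p = 0.000804), and the interaction was -0.94 (SE 0.17, adjusted p = 0.00283), which passed without each library in turn and under total counts. The inhibitor Psmf1 had log2 fold changes from -0.04 to 0.11 over the simple contrasts, none of which passed, and 0.31 with both treatments under total counts (adjusted p = 0.00161).

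The assembly chaperones went in both directions, and their sum in Dox + A-MYB cells was 0.975 of control. In that comparison 3 of 7 were lower and 2 higher, and under total counts 2 and 3. Of all tested genes 30.4% were lower and 33.5% higher after TMM scaling. Psmd9, a chaperone of the 19S base (chr5:123228190-123250126), was at 35.3 and 37.1 CPM in control, 36.3 and 42.6 in Dox, 36.8 and 38.5 in A-MYB, and 48.3 and 54.0 in Dox + A-MYB. It rose by 0.50 against control (SE 0.09, adjusted p = 3.03e-05) and by 0.44 with Dox in A-MYB cells (SE 0.09, adjusted p = 0.00017). Psmg3, a chaperone of the alpha ring (chr5:139823613-139826894), was at 31.1 and 27.5 CPM in control, 25.9 and 27.6 in Dox, 25.97 and 29.25 in A-MYB, and 35.3 and 42.8 in Dox + A-MYB. Dox raised it in A-MYB cells by 0.50 (SE 0.10, adjusted p = 0.000175) and A-MYB raised it in Dox cells by 0.55 (SE 0.10, adjusted p = 6.6e-05), both also without each library in turn, and its interaction was 0.63 (SE 0.15, adjusted p = 0.00117). Against control its 0.41 (adjusted p = 0.000994) was lost without control replicate 2 (adjusted p = 0.053) or Dox + A-MYB replicate 2 (adjusted p = 0.068).

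Psmg4, which pairs with Psmg3 in the cell, moved the other way. It was at 16.8 and 14.7 CPM in control, 11.3 and 12.0 in Dox, 13.4 and 13.1 in A-MYB, and 7.71 and 9.70 in Dox + A-MYB. Its log2 fold change with both treatments was -0.86 (SE 0.14, adjusted p = 4.99e-06). With Dox alone it was -0.43 (adjusted p = 0.0141), which did not pass without control replicate 1 (adjusted p = 0.143) or Dox replicate 1 (adjusted p = 0.112). Psmg1 and Psmg2, the other pair that guides the alpha ring, fell by -0.40 and -0.51 with both treatments, and Psmg1 did not pass under total counts (adjusted p = 0.0656). Psmd5 and Psmd10, further chaperones of the base, passed in no contrast after TMM scaling. Under total counts Psmd5 was higher with both treatments than in control (0.33, adjusted p = 4.54e-05), by Dox in A-MYB cells (0.27, adjusted p = 0.000639) and by A-MYB in Dox cells (0.19, adjusted p = 0.0125), and Psmd10 by A-MYB in Dox cells (0.26, adjusted p = 0.0224). Psmc3ip, the recombination gene, was at 28.1 and 26.5 CPM in control, 30.1 and 25.5 in Dox, 26.3 and 23.3 in A-MYB, and 28.6 and 29.2 in Dox + A-MYB, and did not pass in any contrast, while under total counts it passed upward in 4, among them Dox + A-MYB against control (0.32, adjusted p = 0.00732).

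The response to Dox differed with A-MYB for 18 of the 47 genes. By the interaction test 15 were lower, against 24.5% of all tested genes, and 3 higher, against 16.4%. Among the 2933 most abundant genes 50.9% were lower (median -0.23), beside 42.9% of the 35 proteasome genes there (median -0.15), so the lower calls were no more frequent than in other abundant genes. Under total counts the split was 6 lower and 10 higher. The lower interactions of Psma1, Psma3, Psmc6, Psmd2, Psmd12 and Psme4 and the higher ones of Psmc3 and Psmg3 passed both under total counts and without each library in turn.

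**Figure D5:**
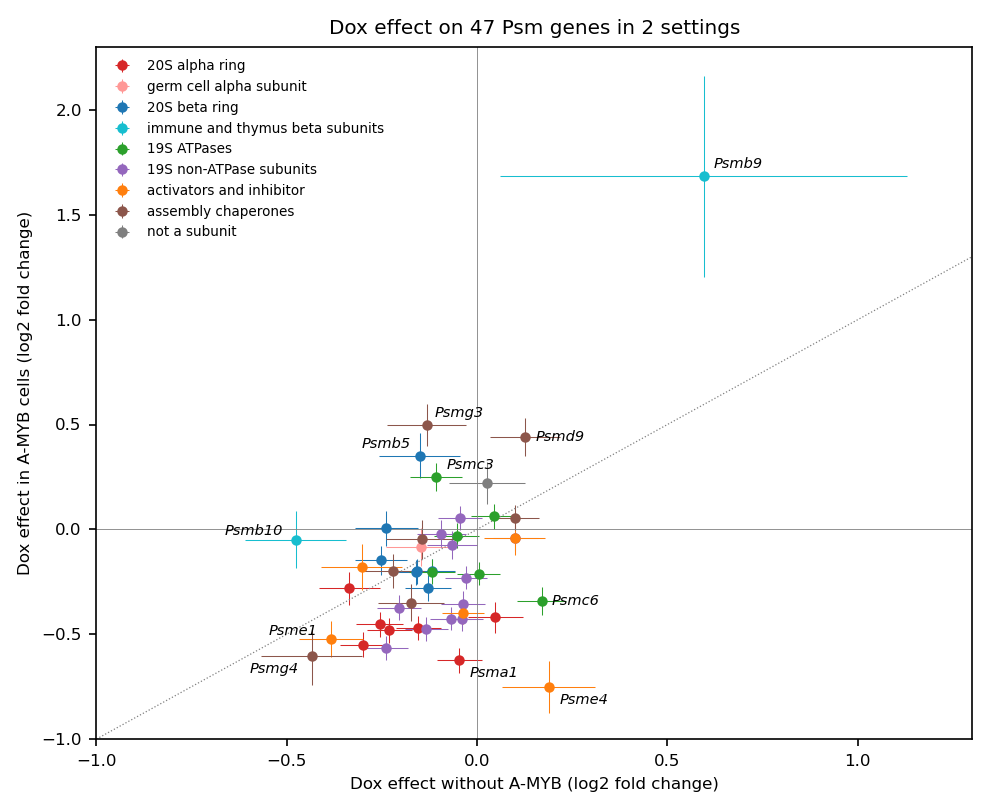
Each point is 1 of the 47 tested genes. The horizontal axis is the log2 fold change of Dox against control, the vertical axis that of Dox + A-MYB against A-MYB, bars are standard errors, and the dotted line marks equal effects. These contrasts share no library. Psme4 and Psma1 lie below the line, with interactions of -0.94 and -0.58, and Psmg3 and Psmb5 above it, with 0.63 and 0.50.

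Genes that serve the proteasome under other symbols were listed by function: ubiquitin carriers, shuttle factors, deubiquitinases and regulators. Of 32 listed genes 31 were tested, and 15 were lower and 5 higher in Dox + A-MYB cells than in control (median -0.14), beside 30.4% and 33.5% of all tested genes. Of the 20 that lay among the most abundant genes, 14 were lower, beside 59.4% of all such genes, and nothing is read from the count of the list. Nfe2l1 (NRF1), the transcription factor that induces proteasome subunit genes when proteasome activity falls short, was at 296 and 309 CPM in control, 242 and 243 in Dox, 248 and 254 in A-MYB, and 157 and 160 in Dox + A-MYB. Each treated library was below control (log2 fold change with both treatments -0.93, SE 0.06, adjusted p = 2.33e-13). Vcp, the ATPase that extracts ubiquitinated proteins, was at 525 and 544 CPM in control and 319 and 311 in Dox + A-MYB (-0.76, SE 0.05, adjusted p = 5.54e-12). The shuttle factor Ubqln4 fell from 269 and 284 to 157 and 149 CPM (-0.85, SE 0.06, adjusted p = 2.1e-12). Ubqln2, its relative, had an interaction of -0.92 (SE 0.11, adjusted p = 6.29e-07).

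Others of the list rose with A-MYB alone. The deubiquitinase Uchl5 was at 81.3 and 81.0 CPM in control and 113 and 110 in A-MYB (0.46, SE 0.08, adjusted p = 4.65e-05). Zfand5, a stimulator of the proteasome, was at 47.7 and 51.8 CPM in control and 75.9 and 68.8 in A-MYB (0.54, SE 0.09, adjusted p = 0.000111), with an interaction of -0.95 (SE 0.13, adjusted p = 5.83e-06). The shuttle factor Rad23b rose by 0.30 with Dox (adjusted p = 0.000258) and by 0.35 with A-MYB (adjusted p = 3.54e-05), and AI314180, a scaffold of the 26S particle also known as Ecm29, rose by 0.43 with Dox (adjusted p = 0.000258). Adrm1 and Shfm1 encode 19S subunits without a Psm symbol and Pomp the maturation chaperone of the 20S core, and they are named for that role after their values were seen. They fell by -0.35, -0.43 and -0.68 with both treatments (adjusted p = 5.55e-05, 0.000396 and 2.42e-08), and of these the first and second did not pass under total counts (adjusted p = 0.118 and 0.0578).

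The promoter sequence of the members was searched because Nfe2l1 acts through the antioxidant response element, TGACNNNGC, and A-MYB through AACNGNC. RefSeq promoters of GRCm38.p6, each of 250 bases before to 50 after a start, were on hand for 41 of the 49 genes (44 promoters) and 32851 promoters in all, and both strands were searched. TGACNNNGC was in 13.6% of the members' promoters and in 12.4% of all, and AACNGNC in 45.5% and 32.8%. CCAAT, the NF-Y box, was in 34.1% and 37.4%. The binding element of nuclear respiratory factor 1 was in 4.55% and 0.971%, on 2 of the members, Psma2 and Psmg1. A match is a run of letters, not a bound site. The 6 genes with TGACNNNGC were Psmb5, Psmb6, Psmc6, Psmd9, Psmd12 and Psme4, and the match is shown with up to 25 bases on each side, none past the start, for the 5 in which it lies wholly before the start, written 5′ to 3′ on the gene's strand with the match in capitals.
Psmd9 (chr5:123228134-123228189, plus strand): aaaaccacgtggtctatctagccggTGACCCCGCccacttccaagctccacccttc
Psmb6 (chr11:70525323-70525356, plus strand): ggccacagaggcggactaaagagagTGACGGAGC
Psmd12 (chr11:107479278-107479314, plus strand): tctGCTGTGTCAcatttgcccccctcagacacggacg
Psmc6 (chr14:45329574-45329630, plus strand): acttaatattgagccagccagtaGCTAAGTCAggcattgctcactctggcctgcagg
Psmb5 (chr14:54618009-54618067, minus strand): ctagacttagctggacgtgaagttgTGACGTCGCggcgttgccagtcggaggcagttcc
With both treatments these 5 genes had log2 fold changes against control of 0.50 (Psmd9), -0.25 (Psmb6), -0.31 (Psmd12), -0.03 (Psmc6) and -0.08 (Psmb5). Psmd9 passed upward and Psmb6 and Psmd12 downward, the last 2 not under total counts. Psmc6, Psmb5 and the remaining gene, Psme4, did not pass. The element was about as frequent in the members' promoters as in all promoters, so these values cannot bear on its role.

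H3K27ac marks active promoters and enhancers. In the peak lists of pachytene spermatocytes the start of 1 of 41 members lay in a peak, that of Psmd1 in wild-type replicate 1, where the authors' peak chr1:86064488-86065325 had 42 tags and a fold enrichment of 3.95. No member's start lay in a peak in the other 3 lists. Of 16375 genes, 1.38% and 0.482% had a start in a peak in the wild-type lists and 0.171% and 0.189% in the mutant lists, so nothing is read from these counts. The lists held 29042, 24130, 22397 and 21269 peaks in that order. Why so few starts of any gene lay in them was not tested, so a missing peak cannot be read as a missing mark.

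Several of these genes have processed pseudogenes or near-identical copies that have no line of their own in the count table, such as Psme2b for Psme2. How the counting treated reads shared with such copies is not stated in the sources used here, and their values carry that uncertainty.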

How the data were processed

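The authors deposited, for each ES cell library, raw counts of reads by gene symbol that were not normalized. The submitters' processing notes name HTSeq (no version), bcl2fastq 2.20.0, MACS 1.4.2, Bowtie2 2.3.3.1, HISAT2 2.1.0 and the build mm10, and the libraries were made with a stranded mRNA kit, per the labels' protocols. Lines for reads assigned to no gene were kept out. They held 17.2 to 19.5% of all counted reads per library. The deposited peak lists give tags as counts, a score, and a fold enrichment as a ratio. The score, headed a negative log10 p, starts at 50 and was used only to filter peaks.

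Of 23420 genes, 14664 passed filterByExpr. Counts were scaled by TMM and fitted with edgeR 4.0.16 (glmQLFit, robust, 1 coefficient for each of the 4 groups, 4 residual degrees of freedom, R 4.3.3). The two-sided glmQLFTest gave each contrast. Dividing the size of a log2 fold change by the root of its F gave the SE. The script was tested on simulated counts. Means are given with SD, n = 2. Gene positions and promoters are from RefSeq GRCm38.p6. Intervals cover counting error only. The members, lists, tests and alternatives were chosen with earlier results of these data known. Full values are given for, per role, the 2 members with the smallest interaction p, the 2 with the largest change, those opposed to the majority of their role, and 8 fixed members, and of the partner lists for up to 4 genes with the smallest p per contrast. Alternatives were DESeq2 1.42.0 and its size factors, total counts, no filter, a fit without robust, a replicate block and leaving out each library. The ChIP input libraries were not analysed here. Some genes of the partner and marker lists are not reported here.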

Additional observations from a re-analysis of the deposited data

Results flagged for a closer look

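For 18 members the Dox effect with A-MYB differed from that without by the interaction test of edgeR (adjusted p under 0.05, log2 scale, Dox effect in A-MYB cells minus that without). It was lower for Psme4 (-0.94), Psma1 (-0.58), Psmc6 (-0.51), Psma3 (-0.47), Psmd12 (-0.39), Psme3 (-0.36), Psmd2 (-0.36), Psmd1 (-0.34), Psmd7 (-0.33), Psmd14 (-0.32), Psma6 (-0.32), Psma2 (-0.25), Psma4 (-0.25), Psmc2 (-0.21) and Psmd11 (-0.20). It was higher for Psmc3 (0.36), Psmb5 (0.50) and Psmg3 (0.63). Among all tested genes 24.5% were lower and 16.4% higher, and among the 2933 most abundant genes 50.9% were lower, beside 42.9% of the 35 members there. Of the 15 lower members, 11 passed without each library in turn and 6 passed under that and under total counts as well. Psma2, Psma4, Psmc2 and Psmd11 were the lower members that failed without single libraries, Psmd11 without each one of the 8.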

How the results depend on the processing

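Under total counts 10 members were lower with Dox alone, 13 were higher and 16 lower by Dox in A-MYB cells, 5 higher with A-MYB alone, 12 higher and 10 lower by A-MYB in Dox cells, 12 higher and 18 lower in Dox + A-MYB against control, and 10 higher and 6 lower by the interaction. The alternative adds a near constant to every gene. It turned the sign of 4 members with Dox alone, 15 by Dox in A-MYB cells, 2 with A-MYB alone, 11 by A-MYB in Dox cells, 9 in Dox + A-MYB against control and 10 by the interaction. Those that passed under TMM or total counts follow. By Dox in A-MYB cells these were Psmb1 (0.0055), Psmb4 (0.0098), Psmb7 (0.0116), Psmc1 (0.0091), Psmg1 (0.0105), Psmc4 (0.18), Psmd4 (0.19) and Psmd6 (0.17). By A-MYB in Dox cells Psmb1 (0.0461), Psmb7 (0.0521), Psmc4 (0.0487), Psmd8 (0.15) and Psmd5 (0.19) turned. Against control in Dox + A-MYB cells Psmc2 (0.0412), Psmc4 (0.0397), Psmc6 (0.21), Psmd4 (0.0665) and Psmd8 (0.15) did. Psmb6 turned to -0.18 for Dox in A-MYB cells without Dox + A-MYB replicate 2. The 1 member higher with Dox alone, Psmc6, was lost (0 members) with DESeq2 size factors, with DESeq2 and without robust. Leaving out each library in turn gave, higher and lower, 0 to 2 and 6 to 21 members for Dox alone, 3 to 6 and 21 to 30 for Dox in A-MYB cells, 1 to 2 and 4 to 20 for A-MYB alone, 1 to 5 and 22 to 33 for A-MYB in Dox cells, 2 to 4 and 28 to 34 for both against control, and 2 to 6 and 11 to 14 for the interaction. The lowest counts of lower members for the single treatments, 6 and 4, were those without control replicate 1. A lone library is then assumed to vary like the other groups. Beyond the change of scaling and the loss of a library, the cause of these moves was not tested. Of 372 pairs of a gene described and a contrast, 199 kept their direction and side of the threshold under every alternative. Within 1000 bases of a start, 2, 1, 1 and 1 members had a peak in the 4 lists, and with a score of at least 100 none (0) had one in wild-type replicate 1. Replicate numbers did not pair the libraries (correlations of deviations -0.0269 to 0.0843). With the replicate number as a block, 3 members were higher and 32 lower in Dox + A-MYB against control, 6 and 27 for Dox in A-MYB cells, and 4 and 15 for the interaction. The block added calls of Psmd13 against control (-0.15, adjusted p = 0.0478), Psmc3ip for Dox in A-MYB cells (0.22, adjusted p = 0.042), Psmg1 for A-MYB alone and in Dox cells (-0.21 and -0.18, adjusted p = 0.031 and 0.0394) and Psmd9 for the interaction (0.32, adjusted p = 0.0289), and lost none of the members' calls. Depth limits Psmb8 and Psmb11, with at most 7 counts per library.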
